A study of Mus musculus with 5 samples.

Results

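Gluconeogenesis and fructose metabolism are described here through 8 genes: pyruvate carboxylase (Pcx), the cytosolic phosphoenolpyruvate carboxykinase (Pck1), the fructose bisphosphatases Fbp1 and Fbp2, the glucose-6-phosphatase catalytic subunit (G6pc), ketohexokinase (Khk), the liver glycogen synthase (Gys2) and the liver and red cell pyruvate kinase (Pklr). The genes were listed by name, and each was represented by the probe set annotated to it alone that had the highest mean signal over the arrays. All 8 were measured, among 12393 genes in all. Pooled total RNA of whole C57BL/6 mice aged 1 day and pooled total RNA of colon from adult C57BL/6 mice aged 8 weeks were mixed so that colon RNA made up 0%, 25%, 50%, 75% or 100% of the total. Each mix was amplified from 10 ng in 2 rounds and measured on 1 Affymetrix array, 5 in all, with no replicate. The deposited values are log2 signals, and the values on the arrays are given in order of rising colon share throughout. The number of animals in each pool was not given in the sources used here, and tissue and age differ together between the pools. In these tissue RNAs, fewer cells of a type and less RNA per cell cannot be told apart.

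Gluconeogenesis makes glucose from pyruvate, lactate, glycerol and amino acids, mainly in liver and kidney. It runs back along glycolysis except at the irreversible steps, which are passed by pyruvate carboxylase, phosphoenolpyruvate carboxykinase, fructose bisphosphatase and glucose-6-phosphatase. The liver begins to make glucose around birth, when the supply through the placenta ends. Fructose enters through ketohexokinase, the first enzyme of its breakdown in liver, kidney and small intestine, and liver stores glucose as glycogen through glycogen synthase. Pyruvate kinase works against the pathway, at the last step of glycolysis.

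A straight line in the colon share was fitted by limma to the log2 signals of every probe set. Its slope runs from pure whole mouse to pure colon RNA and is positive where colon is higher. A gene "rose" or "fell" with rising colon share when its limma p, Benjamini-Hochberg adjusted over 22626 probe sets, was under 0.05. Of the 8 genes, Fbp1, G6pc and Pcx fell, Fbp2 rose, and Pck1, Khk, Gys2 and Pklr did not pass. Over all 12393 genes 14.5% fell and 9.80% rose (1797 and 1215 genes), and with each array centred on its median 1703 fell and 1933 rose, while the calls of the 8 genes stayed as they were. The median slope of the 8 genes was −0.57 log2, and that of all genes was −0.01. Between the undiluted arrays, Fbp1, G6pc and Pcx were at least 1 log2 unit (2-fold) higher in whole mouse, as were 10.4% of all genes, and Fbp2 was at least 1 log2 unit higher in colon, as were 9.26%. Because 1 pool of each kind supplied every array, the p-values do not reflect variation among animals. They, the SEs and the intervals reflect the distance of single arrays from a straight line, which may be technical. For large differences that distance also holds the curve that mixing gives on the log2 scale.

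Array medians lay between 6.83 and 6.92 log2. The 18 probe sets for hybridisation controls had a mean of 10.52 on the 25% array and between 9.79 and 10.04 on the others. On the colon array, the 27 probe sets for bacterial poly-A transcripts read between 2.72 and 5.21, and signals in that range are near the lower end of what the arrays measured. Marker lists are set beside the labels as a description only, since they were chosen with earlier results of these data known. The 8 measured colon epithelium markers, among them the intestinal transcription factor Cdx2, all had positive slopes (3 rose). The log2 of their summed intensity was 11.83 in whole mouse and 15.56 in colon. The 11 liver markers summed to 16.28 and 10.83, 10 of them with negative slopes (3 fell). Calls can miss large differences, which do not follow a straight line on the log2 scale. The albumin gene Alb read 13.70 in whole mouse and 6.48 in colon and did not pass (limma adjusted p = 0.136). Tat, a liver aminotransferase and the liver marker with a positive slope, read 7.30 and 7.34.

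Pcx makes oxaloacetate from pyruvate in mitochondria, the first step of gluconeogenesis, and also serves fat synthesis in adipose tissue. The gene lies at chr19:4510472-4621752 (plus strand, GRCm38.p6, as for all coordinates here). Its probe set read 10.65, 10.12, 9.89, 9.91 and 9.24. The signal was highest in whole mouse and lowest in colon, with the 50% and 75% arrays almost level. Pcx fell by 1.21 log2 (SE 0.21, 95% interval −1.75 to −0.67, limma adjusted p = 0.0228). The array carries 4 further Pcx probe sets as controls along the transcript, which were not in the fit. The control at the 3′ end read 10.39, 9.99, 9.78, 9.72 and 9.20, in strict order. The control at the 5′ end read 7.04 in whole mouse and 6.81 in colon, and the middle ones 7.45 and 7.24, and 7.23 and 6.93. Colon minus whole mouse was −1.41 log2 at the main probe set, −1.19 at the 3′ control, −0.23 at the 5′ control and −0.21 and −0.30 at the middle ones. All 5 had the same sign, but the 5′ and middle controls did not fall step by step. From the 25% array on, the 5′ control read 6.81, 6.78, 6.81 and 6.81, and the first middle control 7.24, 7.18, 7.24 and 7.24. The second middle control read 7.25, 7.25 and 7.26 in the mixes and was lower only in colon. The small differences were those of the dimmer probe sets, the 5′ and middle controls. Whether the Pcx difference varies along the transcript can therefore not be read from them.

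Pck1 turns oxaloacetate into phosphoenolpyruvate in the cytosol and is made in liver, kidney, fat and gut. The gene lies at chr2:173153073-173159274, and its probe set read 9.72, 9.66, 9.60, 9.50 and 9.51, so the 5 arrays spanned 0.21 log2. The slope was −0.23 log2 (SE 0.09, 95% interval −0.47 to 0.02, limma adjusted p = 0.167). For this probe set the interval leaves out a slope of 1 log2 unit in either direction, but it does not reflect variation among animals. On linear intensities the same regression gave Pck1 an adjusted p of 0.0294, again lower in colon. A second Pck1 probe set read 3.83, 3.74, 3.80, 4.25 and 4.60, within the range of the bacterial poly-A probe sets. Its slope of 0.82 (95% interval 0.25 to 1.38, limma adjusted p = 0.0608) had the opposite sign, and the mean of both probe sets had a slope of 0.30. Pck2, the mitochondrial enzyme of the same step, read 8.78 in whole mouse and 9.06 in colon (slope 0.22, limma adjusted p = 0.257).

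Fbp1, the fructose bisphosphatase of liver and kidney, removes a phosphate from fructose bisphosphate. Its signals were 11.86, 11.52, 10.89, 10.00 and 6.91, in strict order. On the log2 scale, most of the decline lay between the 75% and the colon array. Fbp1 fell by 4.56 log2 (SE 0.95, 95% interval −7.02 to −2.11, limma adjusted p = 0.0345), and the undiluted arrays differed 30.9-fold. Its slope was lower than those of all but 0.863% of the genes.

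Fbp2, the isozyme known from skeletal muscle, catalyses the same reaction. It read 10.38, 10.96, 11.42, 11.35 and 11.56. Every array with colon RNA was above the whole mouse array, and the 50% and 75% arrays were close to colon. Fbp2 rose by 1.10 log2 (SE 0.24, 95% interval 0.48 to 1.72, limma adjusted p = 0.0379), and the undiluted arrays differed 2.26-fold. The 10 skeletal muscle markers measured beside it all had negative slopes (3 fell), and the log2 of their summed intensity was 16.43 in whole mouse and 9.52 in colon. Their actin Acta1 read 13.95 and 6.63 and did not pass (limma adjusted p = 0.115). The old symbols of the fructose bisphosphatase genes were exchanged in the past, so both were matched through their gene identifiers. The genes lie near each other on the minus strand of chromosome 13, with Fbp2 at chr13:62836884-62858400, Fbp1 at chr13:62864753-62888298 and 6352 bases between them. Within an array, the Fbp1 signal minus the Fbp2 signal was 1.48, 0.55, −0.53, −1.35 and −4.64 log2, a shift of −6.13 from whole mouse to colon. Only the shift can be read, since the levels of different probe sets are not comparable.

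G6pc releases free glucose in the endoplasmic reticulum, the last step of gluconeogenesis and of glycogen breakdown in liver. The gene lies at chr11:101367716-101377903, and its signals were 8.99, 8.72, 8.03, 7.34 and 4.95, in strict order. The colon value lay within the range of the bacterial poly-A probe sets, so the size of its fall is inexact. G6pc fell by 3.79 log2 (SE 0.71, 95% interval −5.61 to −1.97, limma adjusted p = 0.0268), and the undiluted arrays differed 16.5-fold. The transporter that brings glucose-6-phosphate to it, Slc37a4, read 9.98 in whole mouse and 9.67 in colon (slope −0.37, limma adjusted p = 0.218). G6pc3, the phosphatase found in most tissues, read 8.96 and 9.23 (slope 0.39, limma adjusted p = 0.28).

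Khk (chr5:30921436-30931248) phosphorylates fructose, and its signals were 8.07, 7.94, 8.20, 8.23 and 8.07. The undiluted arrays held the same value. Its slope was 0.12 log2 (SE 0.15, 95% interval −0.27 to 0.50, limma adjusted p = 0.664). Gys2 (chr6:142422612-142473130), which builds glycogen in liver, read 6.24, 5.62, 5.29, 5.16 and 5.33. The whole mouse array was the highest and the 75% array the lowest, and the colon value lay just above the range of the bacterial poly-A probe sets. Its slope was −0.91 (SE 0.28, 95% interval −1.64 to −0.18, unadjusted p = 0.0239, limma adjusted p = 0.086). It was −0.40 when the whole mouse array was dropped and −1.42 when the colon array was.

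Pklr (chr3:89136122-89146815), the last enzyme of glycolysis in liver and red cells, read 7.98, 7.98, 7.69, 8.06 and 8.20 in its brightest probe set. The 50% array was the lowest. The slope was 0.21 log2 (SE 0.21, 95% interval −0.33 to 0.75, limma adjusted p = 0.566). Its other probe sets were in strict order, with 7.66, 7.90, 7.91, 8.04 and 8.09 in the first (slope 0.40, limma adjusted p = 0.0616) and 7.05, 7.18, 7.30, 7.45 and 7.60 in the second. The second had a slope of 0.55 (SE 0.09) and passed, with a limma adjusted p of 0.0208, so Pklr was called by 1 of its 3 probe sets and not by the brightest. Pkm, the pyruvate kinase of most other tissues, read 10.93 in whole mouse and 11.39 in colon (slope 0.40, limma adjusted p = 0.2). Of the 6 erythroid markers measured, 3 fell and none rose, and their summed intensity was 11.83 and 8.92 on the log2 scale.

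**Figure D1:**
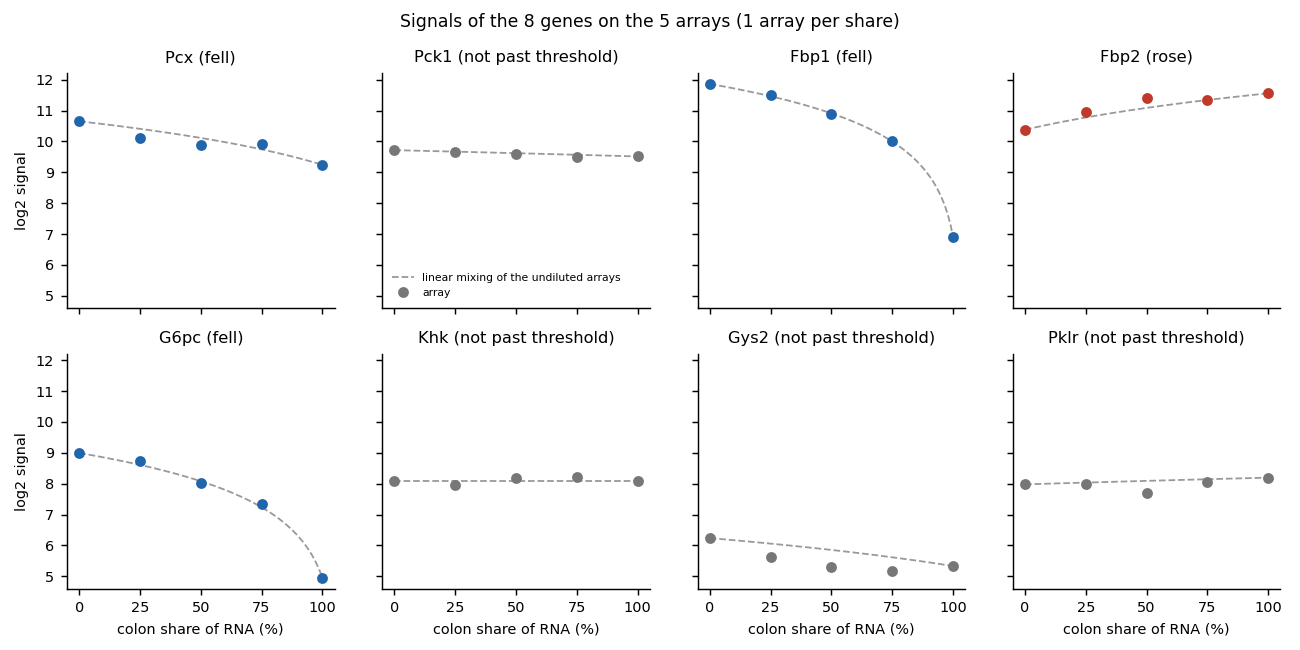
Log2 signal (vertical axis) of each of the 8 genes against the colon share of RNA in percent (horizontal axis), 1 point per array, with blue for genes that fell, red for the gene that rose and grey for those not past the threshold. The dashed curve is what linear mixing of the undiluted intensities gives, and the points of Fbp1 and G6pc lie close to it, from 11.86 to 6.91 and from 8.99 to 4.95.

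**Figure D2:**
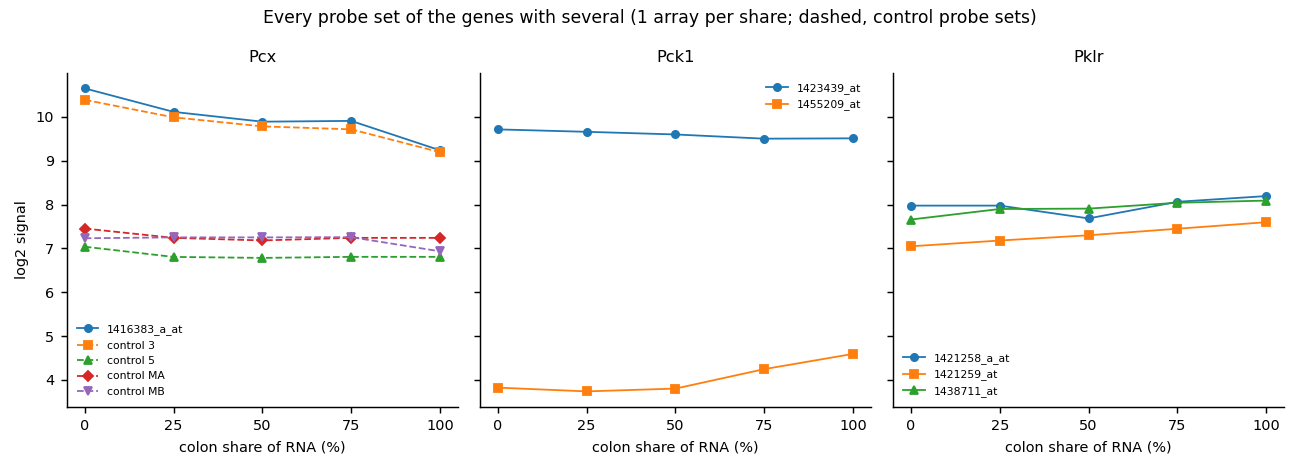
Log2 signal (vertical axis) of every probe set of Pcx, Pck1 and Pklr against the colon share in percent (horizontal axis), 1 array per share, with the control probe sets dashed. The main probe set and the 3′ control of Pcx go from 10.65 to 9.24 and from 10.39 to 9.20, while the other Pcx controls stay between 6.78 and 7.45.

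Since the composition of each mix is known, the signals can be set against linear mixing, in which each mix has the average of the undiluted intensities, weighted by share. The departure is the measured minus the mixed value on the log2 scale, given as a description since each mix had 1 array. Fbp1 departed by 0.06, −0.02 and 0.01 log2 at 25%, 50% and 75% colon, and G6pc by 0.12, −0.05 and 0.11. Read the other way, the Fbp1 intensities gave colon shares of 21.9%, 50.7% and 74.9%, and those of G6pc 18.2%, 51.9% and 72.5%. Over the 1284 genes at least 1 log2 unit higher in whole mouse, the median shares were 36.0%, 62.9% and 80.6%, and the departures had SDs of 0.26, 0.25 and 0.26. Both genes lay on the whole mouse side of those medians in every mix.

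Pcx was below linear mixing at 25% (−0.29) and 50% (−0.22) and above it at 75% (0.17), giving colon shares of 49.7%, 65.6% and 64.4%. Fbp2 was above it by 0.19, 0.33 and 0.01, giving shares of 39.6%, 83.3% and 76.4%. Over the 1148 genes at least 1 log2 unit higher in colon, the median shares were 43.1%, 62.6% and 74.6%. Gys2 lay below linear mixing in all 3 mixes, by −0.43, −0.56 and −0.45 log2, and its signals in the 50% and 75% mixes were under both undiluted arrays. Pklr was below by −0.40 at 50%, and Pck1 stayed within 0.06 and Khk within 0.16 of linear mixing. Over all genes the SD of the departure was 0.26, 0.22 and 0.18 log2.

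Linear mixing of a large difference is a curve and not a straight line on the log2 scale. The curve is steepest toward the undiluted array with the lower signal. Dropping that array therefore makes a fitted slope smaller in size even under exact mixing, here and in the lists below. Regressed on linear intensities, Fbp1 had an adjusted p of 0.00451 and G6pc of 0.00893, while Fbp2 (0.0558) and Pcx (0.0551) no longer passed the limma test. Leaving out single arrays left 2 residual degrees of freedom and ended calls too. Without the whole mouse array the limma adjusted p was 0.0677 for G6pc, 0.0802 for Fbp1, 0.152 for Fbp2 and 0.128 for Pcx, and without the 50% array 0.0682, 0.0776, 0.0515 and 0.0645. Without the 25% array it was 0.0728, 0.0891 and 0.075 for G6pc, Fbp1 and Fbp2, and without the 75% array 0.0576, 0.0669 and 0.111, whereas Pcx passed in both. Without the colon array G6pc and Fbp1 passed with slopes of −2.26 and −2.48, and Fbp2 (0.117) and Pcx (0.147) did not. The slope of Fbp2 was 0.69 without the whole mouse array. The sign of each of these 4 slopes was the same in every fit.

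The stretch before the start site is shown for 4 of the genes, as the genes that fell and rose at the fructose bisphosphatase step, and as G6pc and Pck1, textbook targets of cAMP and insulin, of which G6pc passed the test and Pck1 did not. Each is the 250 bases upstream of a start in the table of RefSeq promoters (GRCm38.p6), from 5′ to 3′ on the strand of the gene. For Fbp1 that start lies inside the gene span given above, so the last bases of its stretch overlap the span, and its positions are counted from that inner start. Capitals mark every match, on either strand, to the TATA box (TATAAA), the CCAAT box (CCAAT), the core of the cAMP response element (ACGTCA), the E-box (CACGTG), a half-site of HNF1 (GTTAAT) and the core of the insulin response sequence (TGTTT). The G6pc stretch is chr11:101367466-101367715 (plus strand), that of Pck1 chr2:173152823-173153072 (plus), that of Fbp1 chr13:62888283-62888532 (minus) and that of Fbp2 chr13:62858401-62858650 (minus).
G6pc: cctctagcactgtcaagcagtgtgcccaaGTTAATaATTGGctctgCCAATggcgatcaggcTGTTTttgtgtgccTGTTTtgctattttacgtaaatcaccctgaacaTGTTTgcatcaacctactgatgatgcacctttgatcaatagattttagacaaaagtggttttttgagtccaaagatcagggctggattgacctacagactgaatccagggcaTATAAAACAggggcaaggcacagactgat
Pck1: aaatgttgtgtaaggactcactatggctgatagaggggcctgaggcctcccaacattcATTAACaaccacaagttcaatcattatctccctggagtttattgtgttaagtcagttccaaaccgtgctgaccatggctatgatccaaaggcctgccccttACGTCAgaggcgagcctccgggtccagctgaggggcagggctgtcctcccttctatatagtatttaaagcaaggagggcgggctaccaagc
Fbp1: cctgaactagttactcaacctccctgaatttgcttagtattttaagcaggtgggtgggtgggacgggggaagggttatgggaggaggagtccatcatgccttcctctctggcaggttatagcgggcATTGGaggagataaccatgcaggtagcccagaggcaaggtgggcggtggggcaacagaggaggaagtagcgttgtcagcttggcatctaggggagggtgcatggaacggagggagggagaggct
Fbp2: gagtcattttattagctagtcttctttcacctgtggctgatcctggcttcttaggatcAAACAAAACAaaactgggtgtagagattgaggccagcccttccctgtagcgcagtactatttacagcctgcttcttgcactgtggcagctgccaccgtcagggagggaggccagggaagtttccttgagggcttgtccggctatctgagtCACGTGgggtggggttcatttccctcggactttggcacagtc

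G6pc held 8 matches. They were a TATA box 29 to 24 bases before the start, the HNF1 half-site at 221 to 216, a CCAAT box on each strand, and 4 insulin response cores, of which 1 overlapped the TATA box on the other strand. Pck1 held 2, the cAMP response element core at 91 to 86 and an HNF1 half-site on the other strand at 192 to 187. Fbp1 held 1 match, a CCAAT box on the other strand at 124 to 120. Fbp2 held 3, an E-box at 42 to 37 and a pair of insulin response cores on the other strand. Of 32851 stretches of the same length in that table, 46.4% held the insulin response core, 33.8% the CCAAT box and 12.4% the TATA box, and 6.47% held the cAMP element core, 6.43% the HNF1 half-site and 6.02% the E-box. A match of letters is a description and not a site.

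Genes whose profile was most like that of a member were found by the root mean square difference over the 5 arrays, each profile centred on its own mean. Closest to G6pc were cardiac troponin T (Tnnt2, 0.04 log2), Npl, an enzyme of sialic acid breakdown (0.07), and Arg1, the arginase of the urea cycle (0.08). Closest to Fbp1 were the pancreatic lipase relative Pnliprp1 (0.05), lactase (Lct, 0.05) and the muscle calcium release channel Ryr1 (0.07). Closest to Fbp2 were Creb3l1 (0.04), a transcription factor, Stxbp3 (0.04), of vesicle fusion, and Rdh10 (0.04), a retinol dehydrogenase. Closest to Pcx were Mapkbp1 (0.02), the biotin-recycling enzyme Btd (0.03) and Tspan4 (0.04). The likeness is over 5 arrays that share their RNA pools.

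Of 18 other genes of gluconeogenesis measured, 2 rose, 3 fell and 13 did not pass, with a median slope of 0.12 log2. These counts are near the shares over all genes (9.80% rose and 14.5% fell), against which the counts of the lists that follow are to be read too. Ldhb, the lactate dehydrogenase subunit of heart, fell by 2.21 log2 (11.77 in whole mouse, 9.52 in colon), and Gpd1, the cytosolic glycerol phosphate dehydrogenase, fell by 2.17 (10.56 and 8.47), with a slope of −0.95 over the mean of its probe sets. The mitochondrial aspartate aminotransferase Got2 fell by 1.17 (12.34 and 11.19, limma adjusted p = 0.0079), with −0.75 over the mean of its probe sets. Ldha, the subunit of glycolytic tissues, read 12.77 and 13.06 (limma adjusted p = 0.135).

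Of 5 other genes of fructose and polyol metabolism, 1 fell and none rose. Slc2a2, the glucose and fructose transporter GLUT2 of liver, islet and small intestine, read 8.29, 8.13, 7.60, 6.51 and 5.22, in strict order. Its colon value lay just above the range of the bacterial poly-A probe sets, so the size of the fall is inexact. Slc2a2 fell by 3.10 log2 (SE 0.44, limma adjusted p = 0.0145), a call that was lost on dropping the 75% array (0.0625) or the colon array (0.082). Slc2a5, the fructose transporter of the small intestine, spanned 6.81 to 7.12 over the arrays (slope 0.02, limma adjusted p = 0.96). Tkfc, which phosphorylates glyceraldehyde from fructose, read 6.80 and 6.11 (slope −0.60, limma adjusted p = 0.135), and Aldh2 read 10.14 and 11.33 (slope 1.13, limma adjusted p = 0.0717). Aldh2 passed with the arrays centred (0.037) and over the mean of its probe sets (slope 0.66, limma adjusted p = 0.015). Of the 7 small intestine markers measured, 4 fell and none rose, and their summed intensity was 14.28 and 12.73 on the log2 scale. Most of the colon sum was Fabp2, a fatty acid-binding protein, which read 12.14 in whole mouse and 12.60 in colon (limma adjusted p = 0.122).

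In glycolysis and its reversible steps, 4 of 16 genes rose and 5 fell (median slope −0.16 log2). The largest falls were those of Pgam2, the muscle phosphoglycerate mutase (−5.34, with 12.55 in whole mouse and 6.65 in colon), Pfkm, the muscle phosphofructokinase (−2.75), and the muscle enolase Eno3 (−2.04). Dropping the colon array took Pgam2 to −2.87 and Eno3 to −1.29. Pfkl, the liver type of phosphofructokinase and the enzyme opposite to fructose bisphosphatase, read 9.40, 10.10, 10.36, 10.71 and 10.65 and rose by 1.24 log2 (SE 0.25, limma adjusted p = 0.0311), with 0.79 when the whole mouse array was dropped. The Pfkl signal minus the Pfkm signal shifted by 4.10 log2 from whole mouse to colon. Tpi1 read 12.97 and 12.68 (limma adjusted p = 0.3).

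In glycogen metabolism 6 of 17 genes fell and 1 rose (median slope −0.34 log2). The muscle phosphorylase Pygm fell by 3.62 log2 (9.82 and 5.95). The glycogen-binding protein Stbd1 fell as well (slope −2.81, 8.96 and 6.22), and the phosphoglucomutase Pgm2 rose by 2.40 (6.97 and 9.68). Pygm had a slope of −2.26 when the colon array was dropped, and Pgm2 one of 1.55 when the whole mouse array was. Gys1, the glycogen synthase of muscle and most other tissues, fell by 1.51 log2 (9.34 and 7.66, limma adjusted p = 0.0122). Its slope over the mean of its probe sets was −0.82, and its call was lost on dropping the whole mouse array (0.0807) or the colon array (0.0857). Pygl, the liver phosphorylase, fell by 1.31 (8.80 and 7.58, limma adjusted p = 0.0166), but not past the threshold on dropping the 75% array (0.0698) or the colon array (0.117). Ugp2 read 9.85 and 10.85 (limma adjusted p = 0.0552). It passed with the arrays centred (0.0288), with dim probe sets removed (0.042), on dropping the 25% array (0.0485) and over the mean of its probe sets (0.0368).

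**Figure D3:**
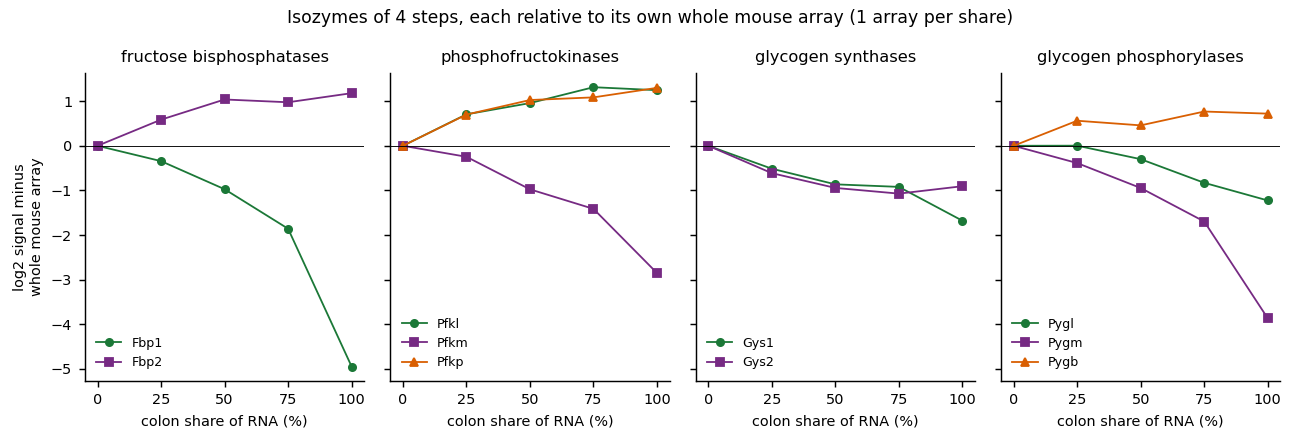
Log2 signal of the isozymes of 4 enzymes (fructose bisphosphatase, phosphofructokinase, glycogen synthase and glycogen phosphorylase), each minus its own value on the whole mouse array (vertical axis), against the colon share in percent (horizontal axis), 1 array per share. Fbp1 and Fbp2 part from the 25% array on, with slopes of −4.56 and 1.10, as do Pfkm and Pfkl with −2.75 and 1.24, while Gys1 and Gys2 both have negative slopes, −1.51 past the threshold and −0.91 not past it.

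Of 24 regulators of glucose output, 5 rose and 3 fell, with a median slope of 0.06 log2. The forkhead factor Foxa1 rose by 3.15 log2 (6.51 and 10.05) and Hnf4a by 2.28 (9.08 and 11.66, limma adjusted p = 0.0476), both known from liver and intestine. Dropping the whole mouse array took their slopes to 1.57 and 1.08. Hnf4a lost its call on dropping the 50% array (0.103), the 75% array (0.137) or the colon array (0.131). The insulin receptor substrate Irs1 fell by 2.35 (10.03 and 7.71, limma adjusted p = 0.00357). Cebpa, a factor of liver and fat, read 9.55 and 8.52 (limma adjusted p = 0.0675), and passed when genes were represented by the mean of their probe sets (0.0492).

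**Figure D4:**
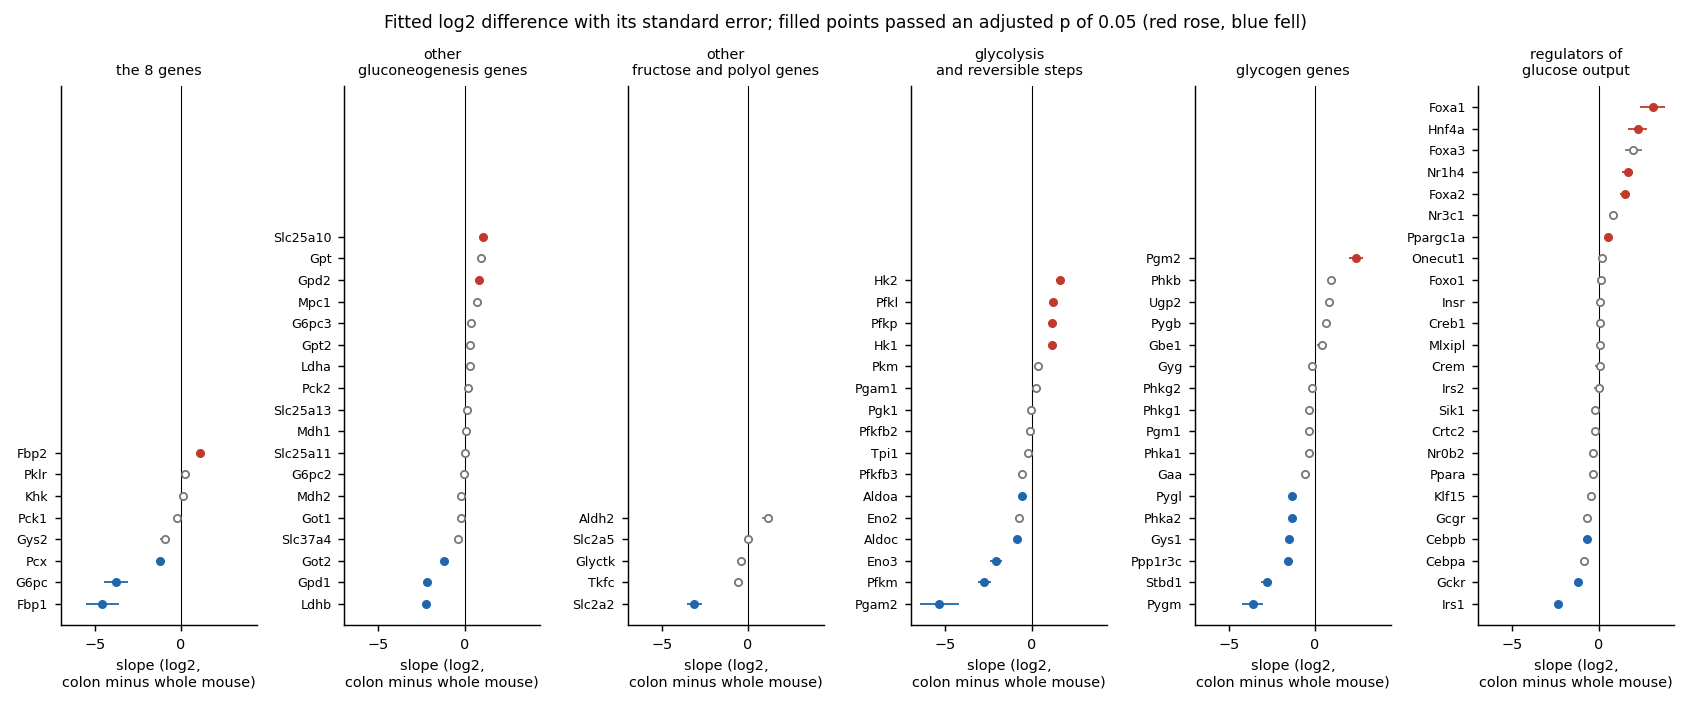
Fitted slope with its standard error (horizontal axis, log2, colon minus whole mouse) for the 8 genes and the measured genes of 5 further lists (vertical axis, 1 gene per line). Filled points passed an adjusted p of 0.05, red for genes that rose and blue for genes that fell, and the 8 genes run from −4.56 (Fbp1) to 1.10 (Fbp2).

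In these further lists 30 genes passed. Dropping the whole mouse array left 12 of them past the threshold, and dropping the 25% array left 19. Dropping the 50% array left 13, the 75% array 11 and the colon array 9. Over all probe sets 4409 passed with every array, and 1492, 2998, 1919, 1365 and 997 with these arrays dropped in the same order. Those counts are of probe sets and include any that passed only with an array dropped. They are therefore not the same measure as the genes kept in the lists, and give only a rough background for the losses. The directions of the calls with every array are to be read against the 1797 genes that fell and 1215 that rose over all genes. Got2, Gpd1, Ldhb, Pfkm, Ppp1r3c and Irs1 passed in each of the 5 fits that left out 1 array, and all 6 fell. The directions of all genes that passed in each of these fits were not counted. The shared direction of the 6 therefore has no background share and is a description. Pfkl and Foxa1 were among 7 that passed in none of them, Pgam2, Eno3 and Pygm passed in 1 and Pgm2 in 2, while Stbd1 lost its call only on dropping the colon array (0.0693). The summed intensities of the kidney, fat and pancreas marker lists were lower in colon as well, though not every gene in them was. Calls in all the marker lists are to be read beside the 14.5% of all genes that fell and the 9.80% that rose. The kidney proximal tubule list had 4 of 10 genes falling and none rising, with a summed intensity of 10.76 in whole mouse and 10.04 in colon on the log2 scale. The fat list had 5 of 7 falling and 1 rising (Pparg, slope 1.70), with 13.92 and 11.56. The pancreas list had 5 of 7 falling and 1 rising (Gcg, slope 3.18), with 13.92 and 10.88. On the colon array the liver markers read from 5.15 to 10.08 and the muscle markers from 4.41 to 8.19, with the lowest of each within the range of the bacterial poly-A probe sets. The part of these lists in the results above was not tested.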

How the data were processed

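Expression was measured on 5 Affymetrix arrays, 1 for each mix of whole mouse and colon RNA, and samples were placed by the colon share in their titles. The authors deposited 22690 probe sets on the log2 scale. RMA was used per the submitters' processing notes, with no version named there. RMA corrects background, normalizes the arrays by quantiles and summarises probes by median polish, and it can compress differences. Tied values between arrays were found in 9158 probe sets.

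From these values, 64 control probe sets were set aside and 22626 were fitted without a filter on signal, using limma 3.58.1 (lmFit and eBayes) in R 4.3.3, with the colon share as a number and 3 residual degrees of freedom. P-values are 2-sided and Benjamini-Hochberg adjusted over all 22626. The platform annotation gave 20380 probe sets 1 gene, and symbols were updated through gene identifiers in a RefSeq table of GRCm38.p6 (20351 matched). Intervals are 95% and use the moderated degrees of freedom. The fit was tried on simulated data with slopes that were straight on the log2 scale. Such data cannot show how the fit handles the curves that mixing gives. The precision is limited by the number of arrays. The members, the 5 pathway lists, the marker lists and the motifs were chosen with earlier results of these data known. From each pathway list the text names the 3 genes past the threshold with the largest slope, the brightest not past it, and genes acting at the same step as a member. Further genes (markers, Ppp1r3c) are named as examples. Listed genes that matched no probe set of their own are not analysed here. Alternatives were array centring, an intensity trend in eBayes, a filter at a mean log2 signal of 6, linear intensities, the mean of all probe sets of a gene, the undiluted arrays alone, and leaving out each array.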

Additional observations from a re-analysis of the deposited data

How the results depend on the processing

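Over fits that left out 1 array, the number of probe sets past the limma threshold went from 4409 to between 997 and 2998, and at an unadjusted p under 0.05 from 7866 to between 5874 and 7680. The number of the 8 genes that passed went from 4 to between 0 and 2. These fits had fewer residual degrees of freedom. Pklr, not past the threshold, had its lowest slope, −0.012, when the colon array was dropped and its highest, 0.41, when the whole mouse array was dropped. Slc2a5, also not past it, had slopes of −0.24, −0.03 and 0.33 with the colon, the 25% and the whole mouse array dropped in turn, and a difference of −0.0052 between the undiluted arrays. The mean of both Pck1 probe sets reversed its slope to 0.30, as the second probe set had the opposite sign. Centring the arrays on their medians, an intensity trend and the filter on dim probe sets changed no call of the 8 genes that they could test, Gys2 being removed by the filter. Centring turned the split of all genes from 1215 that rose and 1797 that fell into 1933 and 1703. The median size of the departures from linear mixing over the 8 genes was 0.121 log2, 0.126 after centring and 0.123 with the lowest intensity of each array subtracted. No paired analysis was possible because each colon share had 1 array. With 1 array per mix, no value here has an error from repeated arrays.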
